A study of Mus musculus with 292 samples.

Results

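The mitochondrial carrier family Slc25 is the set of transport proteins, most of them of the inner mitochondrial membrane, whose mouse genes are named Slc25a and a number. Of 48795 gene identifiers in the count tables, 47 carried such a symbol, and the 42 whose mean reached 0.5 CPM (reads of a gene as a share of all counted reads in that library, times 1000000) in 1 or more of 4 tissues are described here. The 5 that stayed under this level were Slc25a2, Slc25a31, Slc25a41, Slc25a43 and Slc25a54. Cortex held 40 of the 42 at this level, striatum 41, hypothalamus 42 and liver 41.

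Most carriers of this family move nucleotides, phosphate, cofactors, amino acids, carboxylates or metal ions between the cytosol and the mitochondrial matrix, mostly by exchanging one solute for another. They tie the matrix reactions of respiration, the urea cycle, haem synthesis and fatty acid oxidation to the cytosol, and several have a pair of related genes used in different tissues. The members were ordered by the solute each is known for: 15 carriers of nucleotides, phosphate and cofactors, 11 of amino acids, glutathione and carnitine, 4 of di- and tricarboxylates, 2 of metal ions, 3 uncoupling protein-like carriers and 7 other or orphan members.

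The messenger RNA came from male, wild-type C57BL/6J mice aged 26 weeks, with no treatment given in the labels. Tissue was taken at 13 time points, every 3 h up to 36 h, and the labels place each library in 1 of 8 zeitgeber times (ZT, counted in hours from lights-on). The 5 times from ZT0 to ZT12 came from 2 successive days and the other 3 from the first day. There were 78 libraries of cerebral cortex (right hemisphere), 60 of striatum, 77 of hypothalamus and 77 of liver, from 79 mouse codes. A ZT group held 6 to 12 libraries, except in striatum, where ZT15 held 2 and ZT18 held 4. Libraries held 28318897 to 40528684 counts in cortex, 11677671 to 43424559 in striatum, 29242990 to 50009419 in hypothalamus, and in liver 11693613 to 41861697. Each library was a bulk tissue sample, so fewer cells of a type and less RNA per cell cannot be told apart.

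Some libraries stood apart in their markers or totals. In cortex, Slc17a7, a marker of excitatory neurons, was at 4.41 CPM in ZT0 replicate 1 and at 12.7 CPM in ZT9 replicate 9, against at least 882 CPM elsewhere. The striatum library ZT21 replicate 3 held 874 CPM of Gabra6, a marker of cerebellar granule cells, and ZT3 replicate 5 had the lowest total and lay below every other striatum library for 29 of the 42 members. Summed markers of striatal projection neurons ran from 70.0 to 5813 CPM over the striatum libraries, and 19 of 60 lay at or under the highest hypothalamus library (531 CPM). Over the cortex libraries the same sum ran from 105 to 4263 CPM, with a median of 750 CPM against 1407 CPM in striatum. Whether this overlap in markers bears on the comparisons of cortex with striatum was not tested. In hypothalamus the pituitary gene Gh was at 29306 CPM in ZT0 replicate 9 and at 20929 CPM in ZT9 replicate 9. The liver library ZT18 replicate 4 held 622770 CPM of the gene Gm42418, against at most 44404 CPM in the other liver libraries. Its level of the hepatocyte marker Alb was 11969 CPM, against at least 62622 CPM in the others. Since CPM is a share of the library total, so large a share for Gm42418 lowers those of other genes. How much of the low values in ZT18 replicate 4 this accounts for was not tested. This library lay below every other liver library for 38 of the 42 members and was left out throughout, which left 76. Hepatocyte markers summed to at least 85173 CPM in these 76 libraries and to at most 116 CPM in any brain library. Summed choroid plexus markers reached 22055 CPM in striatum and 4620 CPM in cortex. Counts without the libraries named here are given with the striatum results and under the dependence on processing, and the part of the choroid plexus markers was not tested.

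Levels differed most between liver and brain. Liver was at least 2-fold higher than the mean of the 3 brain tissues for 20 of the 42 members, where 23.5% of all 22920 genes tested were called in that direction (edgeR's quasi-likelihood test in 1 fit over the 4 tissues, Benjamini-Hochberg adjusted p under 0.05). Liver was at least 2-fold lower for 10 of the 42, where the share over all genes was 41.1%. In either direction 30 of the 42 were called, against 64.7% of all genes. The median log2 difference, liver minus brain, was 0.85 over the members and -0.42 over all genes tested.

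**Figure D1:**
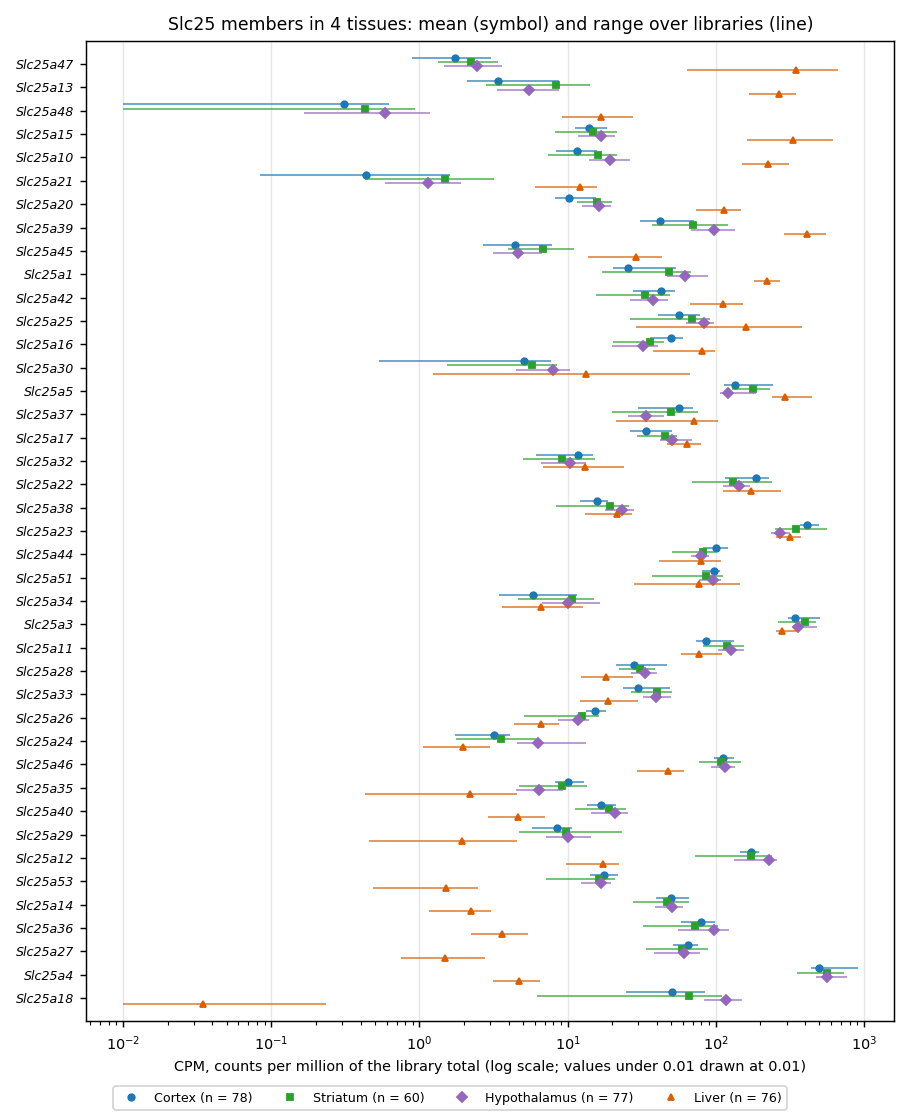
Level of 41 of the 42 members in CPM (log axis), with a symbol for the mean and a line from the lowest to the highest library of each tissue, ordered by the fitted difference between liver and brain. Slc25a47, at the top, spans 64.2 to 670 CPM in liver and at most 3.62 CPM in any brain library, and Slc25a4, near the bottom, spans 351 to 906 CPM in the brain libraries and at most 6.55 CPM in liver.

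The 5 members with the largest fold toward liver were an orphan carrier, an aspartate-glutamate carrier, a member linked to choline import, the ornithine carrier of the urea cycle and the dicarboxylate carrier. Slc25a47, known as a carrier of the liver, was at 347 ± 165 CPM in liver (SD, n = 76) and at 1.73 ± 0.34 in cortex (n = 78), 2.22 ± 0.50 in striatum (n = 60) and 2.45 ± 0.45 in hypothalamus (n = 77). Its fitted log2 difference was 8.26 ± 0.05 (SE, 306-fold), with an edgeR adjusted p of 2.27e-265. Slc25a13, which encodes citrin, the aspartate-glutamate carrier of liver, was at 167 to 346 CPM over the liver libraries and at 2.09 to 14.2 CPM over the brain libraries (log2 difference 6.61 ± 0.03, 97.6-fold). Slc25a48 was at 9.13 to 27.7 CPM in liver and at no more than 1.18 CPM in any brain library, with some cortex and striatum libraries at 0. Slc25a15, the ornithine carrier, was at 161 to 615 CPM in liver against 8.22 to 21.4 CPM in brain (43.0-fold). Slc25a10, the dicarboxylate carrier, was at 149 to 313 CPM in liver against 7.36 to 26.2 CPM in brain (28.9-fold). For each of these 5, no brain library reached the lowest liver library.

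Toward brain, the largest differences were in a glutamate carrier, an adenine nucleotide translocator, a pyrimidine nucleotide carrier and a pair of uncoupling protein-like carriers. Slc25a18, a glutamate carrier, was at 0 to 0.233 CPM in liver, at 24.7 to 83.9 in cortex, 6.19 to 111 in striatum and 82.7 to 151 in hypothalamus. No fold is given for it, since the liver libraries held almost no counts. Slc25a4, the adenine nucleotide translocator of heart, muscle and brain, was 58.9-fold lower in liver (log2 difference -5.88 ± 0.02, SE). Slc25a27, an uncoupling protein-like carrier of neurons, was at 0.749 to 2.76 CPM in liver and at 33.7 to 88.0 in brain (21.1-fold). Slc25a36, a pyrimidine nucleotide carrier, was at 2.23 to 5.38 CPM in liver and at 32.2 to 123 in brain (11.5-fold). Slc25a14, another uncoupling protein-like carrier, was at 1.17 to 3.05 CPM in liver and at 27.6 to 66.0 in brain (11.2-fold). The ranges of liver and brain did not overlap for any of these 5. Slc25a35, an orphan carrier, lay just inside the 2-fold limit (2.01-fold lower in liver) and was not called without the libraries that stood apart.

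Among the brain tissues few members differed by 2-fold or more. Cortex was lower than striatum for 2 of the 42 members, where 12.7% of all genes were called in that direction, and higher for 0 (6.54% of all genes). These were Slc25a13 (3.37 ± 0.95 CPM in cortex and 8.34 ± 2.06 in striatum, 2.37-fold) and the oxodicarboxylate carrier Slc25a21 (0.437 ± 0.204 and 1.497 ± 0.495, 3.31-fold). Cortex was lower than hypothalamus for 4 members, again where 12.7% of all genes were called in that direction, and higher for 0 (10.3%). These were the citrate carrier Slc25a1 (2.12-fold), Slc25a18 (2.04-fold), Slc25a21 (2.28-fold) and the glutathione carrier Slc25a39 (2.01-fold). Striatum and hypothalamus differed by 2-fold for none of the 42, where 6.55% of all genes were called higher and 4.43% lower in striatum. With no minimum fold, the same edgeR test called 40, 39 and 30 members in these 3 comparisons, where 83.6%, 83.8% and 74.2% of all genes were called.

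In some pairs of related carriers, Slc25a4 with Slc25a5 and Slc25a12 with Slc25a13, the more abundant member differed between brain and liver. FPKM values, which divide the count by the length of the gene model, were used to compare genes. Slc25a4 was at 211 ± 22.2 FPKM in cortex (SD, n = 78), 239.7 ± 29.6 in striatum and 241 ± 18.4 in hypothalamus, but at 2.00 ± 0.29 in liver. Its relative Slc25a5, the widely expressed translocator of the same nucleotides, was at 82.4 ± 9.99, 108 ± 11.7, 73.6 ± 7.06 and 178 ± 17.5 FPKM. Slc25a4 was thus 2.22 to 3.27 times Slc25a5 in the brain tissues, and in liver Slc25a5 was 89.1 times Slc25a4. The aspartate-glutamate carriers of the malate-aspartate shuttle showed the same kind of change. Slc25a12 (aralar) was at 23.6 ± 1.27, 23.6 ± 5.04 and 31.1 ± 2.92 FPKM in the 3 brain tissues, 10.7 to 26.7 times Slc25a13. In liver Slc25a13 was at 70.1 ± 9.73 FPKM, 29.5 times Slc25a12 at 2.37 ± 0.28.

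**Figure D2:**
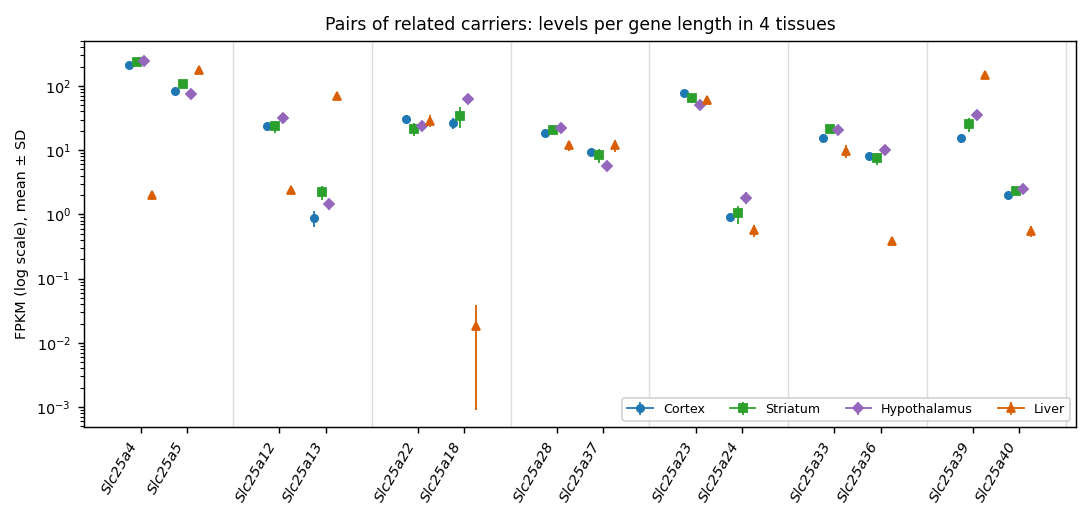
Mean ± SD of FPKM (log axis) over the libraries of each tissue for 7 pairs of related carriers. Slc25a4 and Slc25a12 sit above Slc25a5 and Slc25a13 in the 3 brain tissues and below them in liver.

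The glutamate carrier Slc25a22 stayed between 21.6 and 31.1 FPKM on average in all 4 tissues, so the pair's balance followed Slc25a18, at 61.7 ± 6.84 FPKM in hypothalamus, 34.4 ± 12.2 in striatum, 26.4 ± 5.196 in cortex and 0.018 ± 0.021 in liver. The mitoferrins, which import iron for haem and iron-sulphur clusters, were level in liver, with Slc25a28 at 12.0 ± 2.14 and Slc25a37 at 11.9 ± 2.45 FPKM. In the brain tissues Slc25a28 was 1.99 to 3.90 times Slc25a37. Of the calcium-regulated ATP-Mg/phosphate carriers, Slc25a23 was at 51.4 to 78.3 FPKM on average in the 4 tissues, 28.1 to 105 times Slc25a24 and 2.96 to 10.9 times Slc25a25. The pyrimidine nucleotide carrier Slc25a33 was 1.90 to 2.83 times Slc25a36 in the brain tissues and 26.1 times in liver. The glutathione carrier Slc25a39 was 7.61 to 14.1 times Slc25a40 in the brain tissues and 275 times in liver. Ratios in this paragraph and the one before are of means and were not tested.

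The most abundant members per length were Slc25a4 and Slc25a5 in each brain tissue, followed by Slc25a23 in cortex (78.3 ± 5.43 FPKM) and by the phosphate carrier Slc25a3 in striatum (71.8 ± 6.26) and hypothalamus (64.6 ± 4.39). In liver they were Slc25a47 (219.7 ± 105 FPKM), Slc25a5 and Slc25a39 (150.2 ± 14.02).

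Daily rhythms were then tested in each tissue with a cosine of 24 h. The call was an adjusted p under 0.05 (edgeR's quasi-likelihood test, Benjamini-Hochberg adjustment over all genes tested). The fitted peak-to-trough ratio lies above 1 for noise too, so it is read with its standard error. Where libraries of 2 ZT groups of a member are set side by side below, these groups had its highest and lowest mean. Groups picked so from the same data lie far apart by choice, so a lack of overlap only describes them. The share of all genes without such overlap was not counted. In liver 37 of 41 members tested were called, where 74.8% of all genes were called. Cortex had 26 of 42 called against 43.7% of all genes, hypothalamus 16 of 42 against 24.3%, and striatum 5 of 42 against 5.70%. The ratio reached 1.5-fold for 9 called members in liver (27.9% of all genes), 1 in cortex (7.98%), 1 in hypothalamus (4.59%) and 0 in striatum (3.09%). The median fitted log2 ratio over the members was 0.39 in liver, 0.16 in cortex, 0.17 in striatum and 0.11 in hypothalamus, and over all genes tested it was 0.38, 0.19, 0.24 and 0.16.

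**Figure D3:**
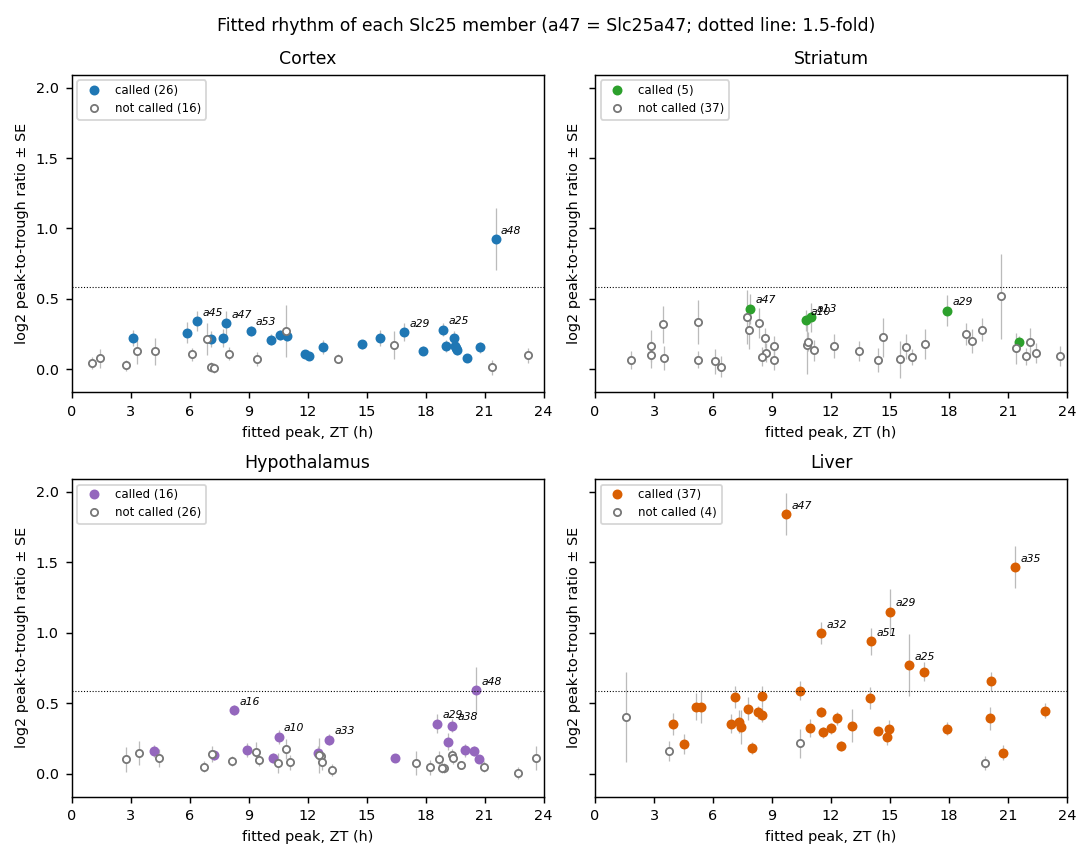
Fitted peak time (ZT, h) and log2 peak-to-trough ratio with its standard error for each member tested in each tissue; filled points were called rhythmic and open points were not. Liver holds 37 called members with ratios up to 1.84 on the log2 scale, and the called members of striatum number 5.

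By role, the liver calls covered 12 of 15 nucleotide, phosphate and cofactor carriers, 10 of 10 tested amino acid, glutathione and carnitine carriers, 4 of 4 carboxylate carriers, 2 of 2 metal carriers, 2 of 3 uncoupling protein-like carriers and 7 of 7 other members. In cortex the same groups had 10 of 15, 5 of 11, 3 of 4, 2 of 2, 2 of 3 and 4 of 7 called. In hypothalamus they had 7 of 15, 4 of 11, 1 of 4, 1 of 2, 0 of 3 and 3 of 7. In striatum they had 1 of 15, 2 of 11, 1 of 4, 0 of 2, 0 of 3 and 1 of 7. Beside these counts stand 74.8% of all genes called in liver, 43.7% in cortex, 24.3% in hypothalamus and 5.70% in striatum. The roles were not tested against these shares. Peaks of the called members fell on either side of ZT12: 19 before and 18 after it in liver, 11 and 15 in cortex, 6 and 10 in hypothalamus, and 3 and 2 in striatum. By another cut of the day, 29 of the 37 in liver lay from ZT4 to ZT16. From ZT4 to ZT16 lay 14 of 26 in cortex, 8 of 16 in hypothalamus and 3 of 5 in striatum. Peak times over all genes were not counted, and whether the members' peaks were spread evenly was not tested.

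Slc25a47 had the largest fitted ratio in liver. Over the 12 libraries of ZT0 it ran from 64.2 CPM through a median of 151 to 216, and over the 11 libraries of ZT9 from 342 through 517 to 644. The ZT0 and ZT9 libraries did not overlap. The group means were 146 ± 41.6 at ZT0, 462 ± 86.8 at ZT6, 521 ± 88.1 at ZT9, 502 ± 109 at ZT12 and 268 ± 109 at ZT15. The fitted log2 ratio was 1.84 ± 0.15 (SE, 3.58-fold) with a peak at ZT9.7 and an edgeR adjusted p of 2.67e-17. GENCODE M21 on GRCm38 places the gene at chr12:108836046-108856815 on the plus strand, and its RefSeq start used for the promoter lies inside that model.

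Slc25a35 peaked on the opposite side of the day. Its 12 ZT0 libraries ran from 1.75 through 3.28 to 4.49 CPM and its 12 ZT12 libraries from 0.428 through 1.14 to 2.38, with some overlap. The fitted log2 ratio was 1.47 ± 0.15 (2.76-fold), with a peak at ZT21.3 and an edgeR adjusted p of 5.61e-13. Of its exonic bases, 31.3% lie under exons of Rangrf on the other strand, and the strand setting of the counting is not given in the sources used here, so reads of the 2 genes may not be separable.

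Among cofactor carriers, the folate and flavin carrier Slc25a32 and the NAD carrier Slc25a51 were highest at ZT12. Slc25a32 ran from 6.78 through 9.53 to 11.3 CPM at ZT0 and from 15.3 through 19.7 to 24.1 CPM at ZT12, with no overlap. Its fitted log2 ratio was 0.999 ± 0.077, with a peak at ZT11.5 and an edgeR adjusted p of 3.72e-19. Slc25a51 ran from 44.8 through 55.3 to 79.1 CPM at ZT3 and from 93.6 through 111 to 145 CPM at ZT12, again with no overlap (log2 ratio 0.94 ± 0.10, peak at ZT14, edgeR adjusted p of 1.72e-13). The phosphate carrier Slc25a3 changed little, with a log2 ratio of 0.20 ± 0.03 that still passed the test (edgeR adjusted p of 1.66e-06).

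Slc25a25, a calcium-regulated ATP-Mg/phosphate carrier, varied widely between livers of one time. It ran from 29.0 through 97.2 to 215 CPM at ZT6 and from 176 through 243 to 384 CPM at ZT12, and these groups overlapped. The fitted log2 ratio was 0.77 ± 0.22 with a peak at ZT15.9 (edgeR adjusted p of 0.00553). In the first cycle alone it did not pass the test (log2 ratio 0.64, adjusted p of 0.0917).

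**Figure D4:**
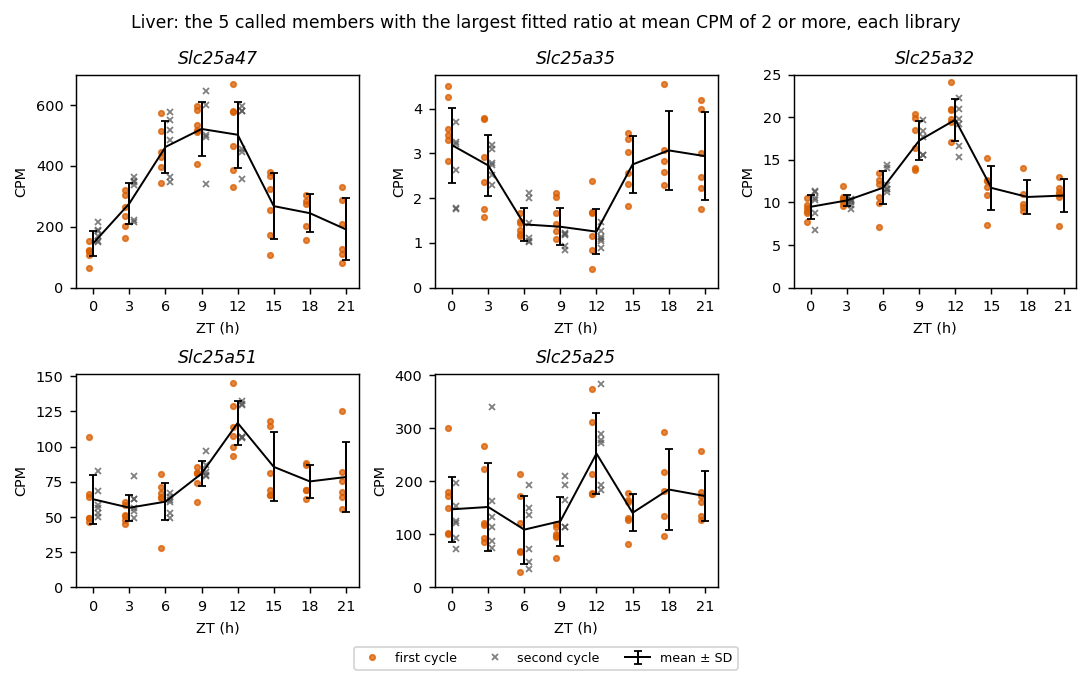
CPM in each liver library by ZT for the 5 called members with the largest fitted ratio among those with a mean of 2 CPM or more; circles are the first cycle, crosses the second, and the line joins group means ± SD. Slc25a47, Slc25a32 and Slc25a51 are highest at ZT9 or ZT12 in both cycles, and Slc25a35 is lowest at ZT12 over all libraries. The second cycle covers only ZT0 to ZT12, so a later maximum could not show there.

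Promoter sequence was matched for 33 of the 42 members in RefSeq's GRCm38.p6 annotation, and 250 bases upstream of the start are printed for 5 members that the results turn on: the liver carrier with the largest rhythm, the coenzyme A-linked carrier Slc25a16 called in 3 tissues, and 3 members called in liver whose window holds a clock or cAMP motif, chosen after the motifs were counted. The windows are chr12:108850879-108851128 (plus strand) for Slc25a47, chr10:62920383-62920632 (plus) for Slc25a16, chr6:6217174-6217423 (minus) for Slc25a13, chr16:17928220-17928469 (minus) for Slc25a1 and chr2:32424067-32424316 (minus) for Slc25a25. Capitals mark matches to the E-box CACGTG, the D-box TTATGTAA or TTACGTAA, the RRE core TAGGTCA or TGGGTCA, and the cAMP element TGACGTCA, each searched on both strands.
Slc25a47: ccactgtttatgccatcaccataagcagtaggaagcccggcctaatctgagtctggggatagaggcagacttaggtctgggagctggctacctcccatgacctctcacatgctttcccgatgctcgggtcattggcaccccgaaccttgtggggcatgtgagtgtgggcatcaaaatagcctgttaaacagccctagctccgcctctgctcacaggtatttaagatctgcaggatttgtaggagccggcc
Slc25a16: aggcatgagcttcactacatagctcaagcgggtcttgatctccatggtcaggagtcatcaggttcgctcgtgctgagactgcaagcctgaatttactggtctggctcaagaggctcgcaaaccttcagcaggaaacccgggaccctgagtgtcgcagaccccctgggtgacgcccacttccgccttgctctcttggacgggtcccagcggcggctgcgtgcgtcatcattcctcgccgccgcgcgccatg
Slc25a13: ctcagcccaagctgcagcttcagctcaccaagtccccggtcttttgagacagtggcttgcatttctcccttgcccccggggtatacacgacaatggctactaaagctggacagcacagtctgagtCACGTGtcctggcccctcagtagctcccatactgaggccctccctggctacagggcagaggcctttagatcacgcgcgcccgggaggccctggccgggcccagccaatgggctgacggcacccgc
Slc25a1: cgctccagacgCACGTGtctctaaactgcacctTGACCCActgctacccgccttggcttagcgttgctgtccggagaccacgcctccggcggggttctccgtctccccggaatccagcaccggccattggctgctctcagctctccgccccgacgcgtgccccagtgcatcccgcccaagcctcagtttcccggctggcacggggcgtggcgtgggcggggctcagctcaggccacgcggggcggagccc
Slc25a25: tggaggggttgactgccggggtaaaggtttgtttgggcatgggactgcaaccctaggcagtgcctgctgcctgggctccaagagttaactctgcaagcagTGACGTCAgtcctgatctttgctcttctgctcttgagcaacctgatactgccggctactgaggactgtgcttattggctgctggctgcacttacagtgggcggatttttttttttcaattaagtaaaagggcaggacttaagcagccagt
Slc25a47 and Slc25a16 held none of these motifs in the window. Slc25a13 held an E-box that starts 125 bases before the start, Slc25a1 an E-box at 239 and an RRE core at 217, and Slc25a25 a cAMP element at 150. Slc25a25 has other annotated starts, with windows at chr2:32431152-32431401 and chr2:32451471-32451720, and these held none of the motifs. Which start is used in liver was not tested. Over all 32851 promoters of the table the E-box was in 6.02%, the D-box in 0.931%, the RRE core in 5.38% and the cAMP element in 1.55%. Of the 43 promoters of the 33 member genes, 7 held an E-box, 0 a D-box, 2 an RRE core and 2 a cAMP element. The 7 with an E-box belong to 6 genes, since overlapping windows of Slc25a14 hold the same site. Another motif searched, the glucocorticoid response motif AGAACA, was in 2 of the 43 and in 16.1% of all promoters. The shares of member promoters were not tested against those of all promoters. A match is a run of letters and shows no binding.

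The 4 carboxylate carriers of liver had fitted peaks between ZT7.8 and ZT11.5. Slc25a10 ran from 149 through 186 to 243 CPM at ZT21 and from 204 through 266 to 313 CPM at ZT9 (log2 ratio 0.32 ± 0.06, peak at ZT10.9). The oxoglutarate carrier Slc25a11 ran from 60.5 through 66.9 to 70.8 CPM at ZT21 and from 80.6 through 89.6 to 109 CPM at ZT12, with no overlap (log2 ratio 0.44 ± 0.04, peak at ZT11.5). The citrate carrier Slc25a1 had a smaller ratio, 0.18 ± 0.04, with a peak at ZT8.0, and Slc25a21 had 0.46 ± 0.09 with a peak at ZT7.8.

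The amino acid carriers of liver did not share a peak time. Slc25a13 ran from 208 through 235 to 261 CPM at ZT0 and from 267 through 316 to 346 CPM at ZT12, with no overlap (log2 ratio 0.39 ± 0.05, peak at ZT12.3, edgeR adjusted p of 1.14e-10). Slc25a15 was lowest at ZT12, from 229 through 268 to 309 CPM, and highest on average in the 6 ZT21 libraries, from 252 through 358 to 615 CPM (log2 ratio 0.45 ± 0.05, peak at ZT22.9, edgeR adjusted p of 1.85e-10). Both feed the urea cycle, Slc25a13 through aspartate and Slc25a15 through ornithine. Slc25a22 peaked at ZT7.1 (0.54 ± 0.08), the glycine carrier Slc25a38 at ZT17.9 (0.32 ± 0.05), the carnitine-acylcarnitine carrier Slc25a20 at ZT14.9 (0.32 ± 0.06) and the branched-chain amino acid carrier Slc25a44 at ZT20.1 (0.39 ± 0.08). The glutathione carriers peaked at ZT14.4 (Slc25a39, 0.30 ± 0.03) and ZT8.5 (Slc25a40, 0.55 ± 0.07).

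Of the mitoferrins in liver, Slc25a28 ran from 12.4 through 14.3 to 17.4 CPM at ZT21 and from 17.3 through 22.7 to 25.01 CPM at ZT12 (log2 ratio 0.59 ± 0.06, peak at ZT10.4), and Slc25a37 had 0.54 ± 0.08 with a peak at ZT14. The adenine nucleotide translocator Slc25a5 peaked at ZT14.8 with 0.26 ± 0.06, and Slc25a4, at a few CPM in liver, peaked at ZT6.9 with 0.35 ± 0.07. Slc25a45, an orphan member, ran from 19.9 through 24.0 to 27.9 CPM at ZT9 and from 28.5 through 35.4 to 43.2 CPM at ZT0, with no overlap (log2 ratio 0.66 ± 0.07, peak at ZT20.1).

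In liver the 4 tested members not called were Slc25a23 (log2 ratio 0.08 ± 0.05), the coenzyme A carrier Slc25a42 (0.16 ± 0.07), Slc25a33 (0.21 ± 0.10) and the uncoupling protein-like Slc25a30 (0.40 ± 0.32). Slc25a30 ran from 1.23 to 67.3 CPM over the 76 livers. Its libraries ran from 4.06 through 5.69 to 17.3 CPM at ZT9 and from 7.13 through 19.4 to 67.3 CPM at ZT3. With ZT as 8 separate levels in place of a cosine, Slc25a30 and Slc25a33 passed the test in liver (edgeR adjusted p of 3.02e-04 and 3.3e-05).

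In cortex the ratios were small. Slc25a45 ran from 3.07 through 3.30 to 4.31 CPM in the 6 ZT15 libraries and from 4.18 through 5.10 to 6.45 CPM at ZT6, which overlapped (log2 ratio 0.34 ± 0.07, peak at ZT6.4, edgeR adjusted p of 4.09e-04). Slc25a25 ran from 46.99 through 50.5 to 55.1 CPM at ZT3 and from 60.1 through 62.5 to 77.8 CPM at ZT0, with no overlap (0.28 ± 0.05, peak at ZT18.9, edgeR adjusted p of 2.41e-06). Slc25a53, an orphan member, ran from 14.6 through 15.3 to 16.4 CPM at ZT0 and from 17.9 through 19.2 to 21.1 CPM at ZT12, with no overlap (0.27 ± 0.04, peak at ZT9.1, edgeR adjusted p of 5.55e-09). Slc25a16 ran from 36.1 through 45.0 to 48.8 CPM at ZT0 and from 48.9 through 54.2 to 59.4 CPM at ZT12, groups that only just failed to touch (0.23 ± 0.03, peak at ZT10.9). Slc25a1 (0.26 ± 0.08, peak at ZT5.9) and the peroxisomal coenzyme A carrier Slc25a17 (0.24 ± 0.04, peak at ZT10.6) were also among the largest. Slc25a1 was not called in cortex with the replicate number as a block (log2 ratio 0.18, edgeR adjusted p of 0.157) or with ZT as 8 levels (0.102). In the 12 cortex libraries of ZT6 it ran from 23.8 through 26.1 to 42.8 CPM. Other members had far values in that group, Slc25a4 from 460 through 502 to 906 CPM and Slc25a30 from 0.536 through 5.13 to 5.88. Groups of this size were not tested for a single far library. Slc25a48 had the largest fitted ratio in cortex, 0.92 ± 0.22, at a mean of 0.309 CPM and with libraries at 0. It falls outside the rule for named members, which asks for 2 CPM, and was named after its value was seen.

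In hypothalamus Slc25a16 had the smallest adjusted p of any member. It ran from 19.8 through 28.2 to 32.1 CPM in the 6 ZT18 libraries and from 32.2 through 37.1 to 40.7 CPM in the 11 ZT9 libraries, which did not overlap (log2 ratio 0.45 ± 0.04, peak at ZT8.3, edgeR adjusted p of 3.50e-16). The glycine carrier Slc25a38 ran from 17.8 through 21.3 to 23.4 CPM at ZT6 and from 24.0 through 25.7 to 27.4 CPM in the 6 ZT15 libraries, with no overlap (0.34 ± 0.04, peak at ZT19.3, edgeR adjusted p of 1.19e-08). Slc25a33 ran from 34.5 through 36.0 to 46.4 CPM at ZT0 and from 39.9 through 43.2 to 49.8 CPM at ZT12, which overlapped (0.24 ± 0.04, peak at ZT13.1). Slc25a35 ran from 4.501 through 5.86 to 6.76 CPM at ZT6 and from 6.77 through 6.93 to 7.99 CPM at ZT15, just apart (0.23 ± 0.06, peak at ZT19.1).

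The called members of striatum included Slc25a10, Slc25a13, Slc25a29 and Slc25a47. Slc25a47, at 1.32 to 3.41 CPM there, was at 2.14, 1.44, 1.48 and 1.83 CPM in the 4 ZT18 libraries and from 2.09 through 2.46 to 3.03 CPM in the 9 ZT9 libraries, which overlapped (log2 ratio 0.43 ± 0.11, peak at ZT7.9, edgeR adjusted p of 0.0186). It was not called with the L code of the labels as a factor (adjusted p of 0.0672), in the first cycle alone (0.176) or with ZT as 8 levels (0.126). Slc25a13 was at 7.57, 8.36, 4.88 and 5.75 CPM at ZT18 and from 7.04 through 10.2 to 12.9 CPM at ZT9 (0.37 ± 0.10, peak at ZT10.97, edgeR adjusted p of 0.0438, and 0.0543 without ZT15 replicate 2). Summed striatal projection neuron markers had medians from 548 CPM (ZT15) to 2140 CPM (ZT3) over the ZT groups. With that sum as a covariate, a setting added after the data were seen, 7 members were called, and Slc25a13 was not (adjusted p of 0.0511). Slc25a29 ran from 4.71 through 7.68 to 10.2 CPM at ZT3 and from 8.65 through 10.7 to 23.2 CPM at ZT21, where the highest value was that of replicate 3. Without ZT21 replicate 3 and ZT3 replicate 5, 3 members were called, and Slc25a29 (adjusted p of 0.0983) and Slc25a13 (0.0703) were not. Both also missed the threshold in the first cycle alone (0.403 and 0.182) and with ZT as 8 levels (0.119 and 0.0634).

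Slc25a10 and Slc25a29 were among the members called in all 4 tissues. Slc25a10, the dicarboxylate carrier, peaked between ZT7.7 and ZT10.9 in every tissue, with log2 ratios of 0.32 ± 0.06 in liver, 0.35 ± 0.07 in striatum, 0.26 ± 0.05 in hypothalamus and 0.22 ± 0.07 in cortex. In the striatum it was at 16.4, 12.9, 11.7 and 12.6 CPM in the 4 ZT18 libraries and from 13.9 through 17.2 to 21.4 CPM at ZT9, which overlapped, and it stayed called there in every other setting tried. In cortex it was not called in the first cycle alone (adjusted p of 0.183), with the L code as a factor (0.0873) or with ZT as 8 levels (0.0779). Of its exonic bases, 6.6% lie under the antisense model Gm11788.

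**Figure D5:**
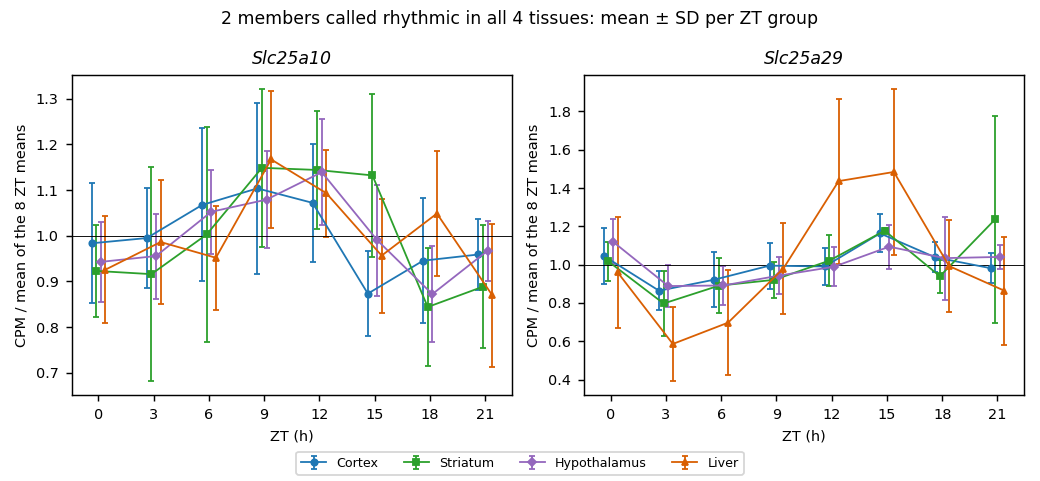
Mean ± SD of CPM in each ZT group, divided by the mean of the 8 ZT means of that tissue, for 2 members called rhythmic in cortex, striatum, hypothalamus and liver. Slc25a10 is highest at ZT9 or ZT12 in each tissue, and the liver curve of Slc25a29 spans a wider range than the cortex and hypothalamus curves.

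Slc25a29, a carrier of basic amino acids, was at 0.457 through 1.09 to 1.75 CPM in liver at ZT3 and at 2.10 through 2.80 to 4.36 CPM in the 6 ZT15 libraries, with no overlap. Its liver log2 ratio was 1.15 ± 0.16 with a peak at ZT15.0 (edgeR adjusted p of 4.40e-09), and in cortex, striatum and hypothalamus it was 0.27 ± 0.07, 0.42 ± 0.11 and 0.35 ± 0.07 with peaks at ZT16.9, ZT17.9 and ZT18.6. Slc25a29 and Slc25a47 are neighbours on chromosome 12 that point away from each other, with 162 bases between their GENCODE ends. The RefSeq start of Slc25a47 lies farther off, just after chr12:108851128, where the GENCODE model of Slc25a29 ends at chr12:108835883. Whether they share a promoter was not tested. Their liver peaks lay at ZT15.0 and ZT9.7.

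Rhythms were compared between tissues by the interaction of tissue with the cosine. Liver differed from cortex for 33 of 41 members, where 65.3% of all genes were called, from hypothalamus for 33 of 41 (61.4% of all genes) and from striatum for 23 of 41 (42.8%). The size given is the peak-to-trough span of the difference between the fitted curves, in log2 units. Between cortex and liver it was 1.54 for Slc25a35, 0.97 for Slc25a45 and 0.92 for Slc25a51 (edgeR adjusted p of 8.34e-17, 7.74e-16 and 3.05e-15). Slc25a45 peaked at ZT6.4 in cortex and at ZT20.1 in liver. Between hypothalamus and liver it was 1.87 for Slc25a47, 0.92 for Slc25a32 and 0.93 for Slc25a51 (edgeR adjusted p of 5.07e-16, 4.70e-15 and 5.26e-15). Between striatum and liver it was 0.92 for Slc25a32, 0.98 for Slc25a45 and 1.47 for Slc25a35 (edgeR adjusted p of 6.89e-12, 7.35e-11 and 1.79e-10).

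Between brain tissues, cortex and hypothalamus differed for 4 of 42 members, where 6.14% of all genes were called. Slc25a16 had a span of 0.31 (edgeR adjusted p of 7.40e-06), peaking at ZT10.9 in cortex and at ZT8.3 in hypothalamus. Slc25a35 had 0.33 (adjusted p of 0.00344), Slc25a53 0.17 (0.0405) and Slc25a25 0.20 (0.0474). Cortex and striatum differed for 0 of 42 members (0.501% of all genes), with 4 at an unadjusted p under 0.05, the smallest for Slc25a37 (span 0.44, edgeR adjusted p of 0.181). Striatum and hypothalamus also differed for 0 of 42 (0.292% of all genes), with 4 at an unadjusted p under 0.05, the smallest for Slc25a47 (span 0.43, edgeR adjusted p of 0.462), Slc25a16 and Slc25a35.

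At the 5 ZT groups sampled on both days, the later day was set against the earlier one. In liver 0 of 41 and in hypothalamus 0 of 42 members differed, where 0.00% of all genes were called in each (6 and 1 at an unadjusted edgeR p under 0.05). In cortex Slc25a42 was lower in the second cycle (log2 difference -0.13, edgeR adjusted p of 0.0170), 1 of 42 where 6.82% of all genes were called. In striatum Slc25a14 (-0.27), Slc25a16 (-0.18) and Slc25a23 (-0.26) were lower (edgeR adjusted p of 0.0441, 0.0441 and 0.0452), 3 of 42 where 2.92% of all genes were called. Without ZT3 replicate 5, 1 of 48 libraries in that striatum fit, 0 members and 0 of all 19945 genes tested were called (9 members at an unadjusted edgeR p under 0.05).

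Genes that work beside the carriers were counted in the same way, and their counts stand beside 74.8% of all genes called in liver, 43.7% in cortex, 24.3% in hypothalamus and 5.70% in striatum. Of 15 other mitochondrial transport genes, 13 were called in liver, 6 in cortex, 1 in hypothalamus and 0 in striatum. In liver the calcium uniporter Mcu had a log2 ratio of 1.30 ± 0.06 (peak at ZT1.5) and the outer-membrane channel Vdac2 0.52 ± 0.03 (ZT12.1). Of 22 enzymes whose substrates the carriers move, 17 of 22 tested were called in liver, 3 of 20 in cortex, 2 of 20 in hypothalamus and 0 of 20 in striatum. Cpt1a, which makes the acylcarnitines that Slc25a20 imports, had 1.27 ± 0.07 in liver (ZT10.5), citrate synthase Cs 0.47 ± 0.04 (ZT1.3) and carnitine acetyltransferase Crat 0.99 ± 0.12 (ZT21.5). Of 10 regulators of mitochondrial biogenesis, 9 were called in liver, 9 in cortex, 2 in hypothalamus and 0 in striatum. Ppard had 3.14 ± 0.18 in liver (8.84-fold, ZT22.0), Esrra 0.88 ± 0.07 (ZT15.0) and Ppargc1b 1.40 ± 0.15 (ZT8.7). Nrf1 had the smallest adjusted p of this list in cortex (0.32 ± 0.03, ZT22.6) and in hypothalamus (0.23 ± 0.04).

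Family members under other symbols were called in 2 of 3 tested in liver (74.8% of all genes), 3 of 4 in cortex (43.7%), 1 of 4 in hypothalamus (24.3%) and 1 of 5 in striatum (5.70%). The uncoupling protein gene Ucp2 was called in liver (0.46 ± 0.11, peak at ZT8.1), cortex (0.34 ± 0.11, ZT12.0) and striatum (0.68 ± 0.18, ZT13.6), and Ucp3 in cortex (0.49 ± 0.09, ZT6.2) and hypothalamus (0.32 ± 0.07, ZT6.0). Mtch2 was called in cortex (0.12 ± 0.03) and liver (0.08 ± 0.03).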

How the data were processed

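Messenger RNA libraries (292, from 4 tissues) were sequenced, and the authors deposited counts per gene and FPKM values. Per the submitters' processing notes the tools include STAR 2.7.3a and HTSeq 0.10.0, with the builds GRCm38 and mm10. The strand setting of the counting and the annotation release were not given in the sources used here. Deposited FPKM values matched those computed from the deposited counts and were used to compare genes by length. CPM is the count divided by the library total, times 1000000.

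Rhythms were tested in each tissue with edgeR 4.0.16 in R 4.3.3 (quasi-likelihood test of a cosine and a sine of 24 h, TMM scaling, filterByExpr by ZT, Benjamini-Hochberg adjustment over all genes tested, threshold 0.05). Differences in rhythm between tissues were tested by interaction, and levels in 1 fit over the 4 tissues with a minimum of 2-fold. DESeq2 1.42.0, other scaling, filters, blocks and left-out libraries were alternatives. The tests were tested on simulated data, where 1.5-fold rhythms were recovered in 97% of cases in cortex, 92% in hypothalamus, 95% in liver and 34% in striatum. Rhythm differences of 1.5-fold between cortex and liver were recovered in 78%. False calls made up 3.03% to 4.41% of calls for rhythms, 5.85% for that difference and 6.54% for levels of liver and brain. The simulated data held no libraries that stand apart, and rhythms under 1.5-fold were not simulated. Libraries are separate tissue samples with mouse codes, and tissues of 1 mouse share a code, so the mouse was a block in an alternative fit, which also used edgeR's non-legacy quasi-likelihood dispersions, unlike the other fits. The liver library ZT18 replicate 4 was left out.

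Members named in full were, per tissue, the 6 called with the largest ratio at a mean of 2 CPM or more, those called in all 4 tissues, pairs of related carriers, the 5 largest folds between liver and brain in each direction, the 3 smallest adjusted p per pair of tissues for a rhythm difference and the 3 highest mean FPKM. From each other list up to 3 called genes per tissue could be named. The members and lists were chosen with earlier results of these data known. Figures were drawn with matplotlib 3.10.9. Results of some genes that meet these rules are not reported here.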

Additional observations from a re-analysis of the deposited data

Results flagged for a closer look

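Of 18 groups of 4 to 10 libraries tested for a single far library, 1 held one, where chance flags about 1 in 20 groups. Slc25a29 in striatum at ZT21 was at 23.2 CPM in replicate 3, with the nearest of the 6 libraries at 11.04. That striatum library also held 874 CPM of Gabra6.

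Rhythms that differed between tissues by the interaction test (edgeR, Benjamini-Hochberg adjusted) came next. Between cortex and hypothalamus the adjusted p was 7.40e-06 for Slc25a16, 0.00344 for Slc25a35 and 0.0405 for Slc25a53. Between cortex and liver it was 8.34e-17 for Slc25a35, 7.74e-16 for Slc25a45 and 3.05e-15 for Slc25a51. Between striatum and liver it was 6.89e-12 for Slc25a32, 7.35e-11 for Slc25a45 and 1.79e-10 for Slc25a35. Between hypothalamus and liver it was 5.07e-16 for Slc25a47, 4.70e-15 for Slc25a32 and 5.26e-15 for Slc25a51. Of the exonic bases of Slc25a35, 31.3% are shared with the antisense gene Rangrf.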

How the results depend on the processing

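Among values of named members under other settings, 301 stayed on their side of the threshold, 26 were no longer called and 0 reversed. The members called rhythmic in striatum, 5 as reported, numbered 1 in the first cycle alone, 2 with ZT as 8 levels and 3 without ZT21 replicate 3 and ZT3 replicate 5, and 4 to 7 when each replicate of its ZT15 and ZT18 groups was left out in turn. Leaving out each of the 5 liver libraries of ZT18 in turn, chosen after seeing the data, gave 35 to 37 in liver; the groups of 6 or more in the other tissues were not treated this way. In hypothalamus the count was 16 as reported, 6 in the first cycle alone and 12 to 19 under the other settings. It ran from 18 to 27 in cortex and from 32 to 38 in liver over all settings. Replicate numbers carry no stated pairing, and not every same-numbered pair correlated. The mean correlation of same-numbered deviations was 0.160 in hypothalamus (-0.0135 for other pairs), 0.0902 in cortex (-0.00425), 0.0780 in striatum (-0.00594) and 0.00712 in liver (0.00140). With the replicate number as a block, 24 members were called in cortex, 4 in striatum and 19 in hypothalamus, and 36 in the liver; in hypothalamus 7136 of all genes were called (4967 as reported). With no minimum fold, level differences were 40 between cortex and striatum, 39 between cortex and hypothalamus and 30 between striatum and hypothalamus, since the limit itself was removed. Cycle differences in cortex were 2 with RLE size factors, 2 with the L code as a factor and 4 without ZT0 replicate 1 and ZT9 replicate 9, where the share of all genes went from 6.82% to 16.3%. In striatum they were 0 without ZT3 replicate 5, where that share went from 2.92% to 0.00%. Where not stated, the cause was not tested. Called in every setting were 32 of 37 members in liver, 15 of 26 in cortex, 6 of 16 in hypothalamus and 1 of 5 in striatum. With the mouse as a block, rhythm differences went from 4 to 6 members between cortex and hypothalamus, 33 to 34 between cortex and liver, 33 to 31 between hypothalamus and liver and 23 to 21 between striatum and liver (6556 to 5363 of all genes), and stayed at 0 for the other pairs (97 to 10 of all genes between cortex and striatum, 59 to 0 between striatum and hypothalamus). That fit also used another dispersion method of edgeR, so the part of each change cannot be told apart. Without the cortex and hypothalamus libraries that stood apart, 27 and 15 members were called rhythmic.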
